A study of Rattus norvegicus with 12 samples.

Results

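A set of 9 genes of central myelin, and of the oligodendrocytes that make it, was measured in rat striatum: Mbp, Mobp, Mag, Mog, Opalin, Cldn11, Cnp, Ugt8 and Ermn. They were taken as all array probes whose accession maps to one of these symbols, which gave 13 probes for the 9 genes out of 30367 probes on the array. The rule used no measured value. The 12 arrays hold striatal RNA of male Wistar rats that had received the dopamine neuron toxin 6-hydroxydopamine (6-OHDA) in the left medial forebrain bundle, and that turned at least 7 times per min after methamphetamine at 3 mg/kg. Lesioned striatum came from rats that got both L-DOPA (100 mg/kg) and zonisamide (50 mg/kg), from rats that got the same dose of L-DOPA alone, and from rats given saline. The last group was the non-lesioned striatum of saline rats that had also been injected with the toxin on the other side. Each group has 3 arrays, dosing was once a day for 7 days, and L-DOPA followed the peripheral decarboxylase inhibitor benserazide. No group comes from rats without a lesion, and the labels do not say whether the non-lesioned and lesioned saline samples are the sides of the same rats.

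Myelin is a stack of oligodendrocyte membrane wrapped around axons. In the striatum it lies mostly in the bundles of cortical and other fibres that cross the tissue. Its genes fall into proteins that pack the membrane (Mbp, Mobp), surface proteins that face the axon or the outside (Mag, Mog, Opalin), the tight junction protein Cldn11, enzymes (Cnp, Ugt8) and a cytoskeletal protein (Ermn). Mature oligodendrocytes switch these genes on together under transcription factors that include SOX10 and MYRF.

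Promoters of 7 of the 9 genes could be matched in RefSeq sequences of the rat build GRCr8 (8 entries, each 250 bases before to 50 bases after the gene start). A pair of short letter strings were searched on both strands, ACAAAG, a core bound by SOX proteins, and CTGGCAC, a core of the MYRF motif. A match on the opposite strand shows as the reverse complement of the string. ACAAAG was in promoters of 5 of these 7 genes and in 18.8% of all 33469 promoters, and CTGGCAC in 3 of the 7 and in 4.75% of all. The 3 promoters that hold both strings, as 0.941% of all promoters do, are shown with each match in capitals, because the array values of their genes can be set beside what they share. The strings do not overlap each other, and a match is a string of letters, not a shown binding site.
Cnp, chr10:86011254-86011553, plus strand: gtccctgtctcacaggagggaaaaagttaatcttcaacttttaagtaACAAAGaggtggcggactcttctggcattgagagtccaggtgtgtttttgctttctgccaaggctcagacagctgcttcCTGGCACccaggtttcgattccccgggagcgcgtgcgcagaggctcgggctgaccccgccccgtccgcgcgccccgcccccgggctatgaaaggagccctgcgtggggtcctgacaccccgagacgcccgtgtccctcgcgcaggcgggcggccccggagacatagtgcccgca
Mag, chr1:95290995-95291294, minus strand: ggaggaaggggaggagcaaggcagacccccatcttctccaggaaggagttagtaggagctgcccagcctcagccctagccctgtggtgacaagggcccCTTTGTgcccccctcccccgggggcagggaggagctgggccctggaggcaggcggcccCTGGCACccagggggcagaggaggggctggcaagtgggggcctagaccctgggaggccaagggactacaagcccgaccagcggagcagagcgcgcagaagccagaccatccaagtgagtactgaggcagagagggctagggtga
Opalin, chr1:249858141-249858440, minus strand: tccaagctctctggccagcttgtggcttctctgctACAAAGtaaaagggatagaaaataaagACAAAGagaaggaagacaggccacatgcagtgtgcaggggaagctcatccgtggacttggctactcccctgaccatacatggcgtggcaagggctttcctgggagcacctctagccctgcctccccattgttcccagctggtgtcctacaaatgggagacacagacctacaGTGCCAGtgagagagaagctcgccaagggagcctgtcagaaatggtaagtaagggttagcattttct

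All levels below are log2 processed signals minus the 75th percentile of the array's own signals, so that 0 is a signal at that percentile. Levels of different genes cannot be set against each other, since each probe has its own response. The 75th percentile lay between 793 and 1737 intensity units, and 67.7% to 74.0% of probes were marked above background. The quality result of the extraction software was ExtractionInRange on replicate 3 of lesioned saline and ExtractionEvaluate on every other array. Some arrays stand apart. Replicate spots of a probe spread by over 20% on 5 arrays, which are all 3 of the non-lesioned side and the replicate 3 arrays of either drug group, and by 3.74% on the lesioned saline array of the same number. Choroid plexus markers (11 of 12 listed could be tested) were far higher on replicate 3 of L-DOPA with zonisamide, replicates 2 and 3 of L-DOPA and replicate 3 of the non-lesioned side than on the other 8 arrays, as is seen in their median level after centring each gene on its mean: 1.58 to 3.83 on those 4 arrays.

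None of the 9 genes changed at an adjusted p under 0.05 in any of the 4 comparisons (limma, Benjamini-Hochberg over 19413 features). All 9 passed the filter on dim probes. Between L-DOPA with zonisamide and L-DOPA alone, 93 features (0.479%) passed, or 13 with the replicate number as a block, and between L-DOPA and lesioned saline 84 (0.433%). Between lesioned and non-lesioned saline 0 features (0%) passed, with 1646 (8.48%) at an unadjusted p under 0.05. Between L-DOPA with zonisamide and lesioned saline 0 (0%) passed, with 1424 (7.34%) unadjusted. An unadjusted p under 0.05 was found for 2 of the 9 genes in the comparison of L-DOPA with zonisamide against L-DOPA, against 12.4% of all features, and for 0 of the 9 in each of the others, against 11.3% of all features for L-DOPA against lesioned saline. In RNA of whole tissue, fewer oligodendrocytes and less RNA per oligodendrocyte cannot be told apart. What differed between the genes was how finely a change could have been seen: the standard error of a log2 change was 0.15 for Mog and 1.5 for Mag, where a single low spot enters it.

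**Figure D1:**
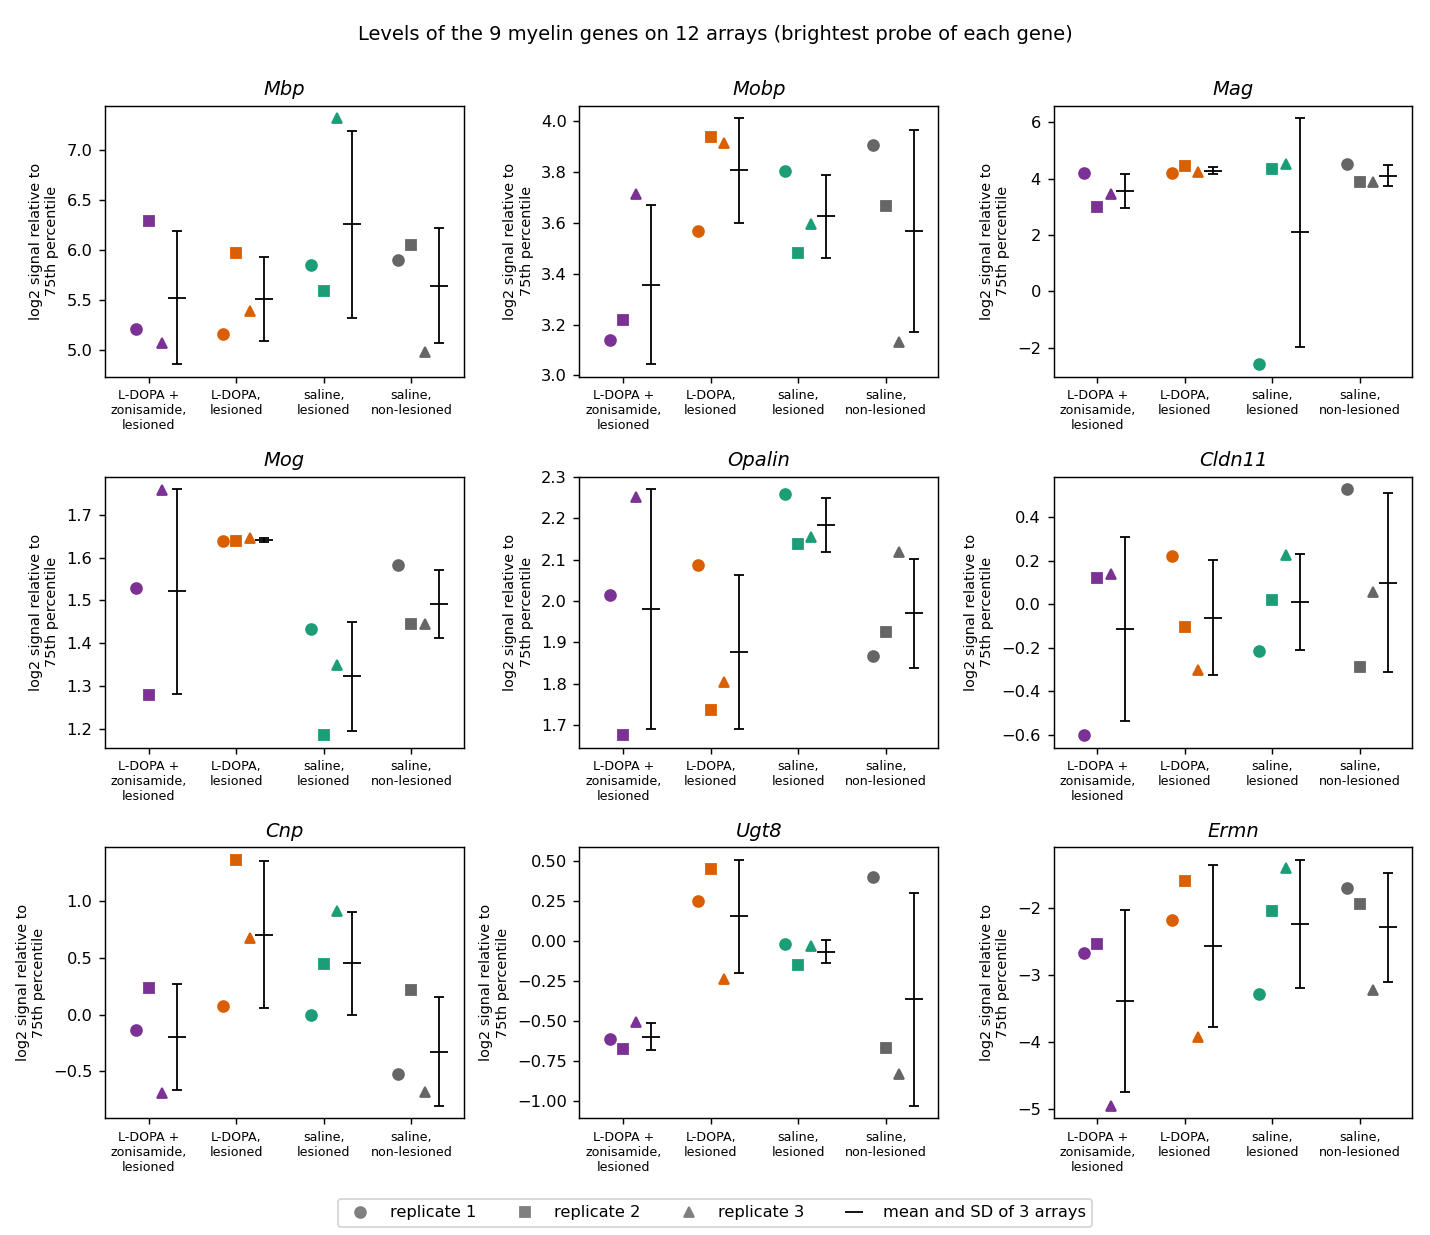
Level of each of the 9 genes (log2 processed signal relative to the array's 75th percentile, own axis per gene) by group, from left to right L-DOPA with zonisamide, L-DOPA, lesioned saline and non-lesioned saline. Coloured points are single arrays with the shape giving the replicate number, and the black bar is the mean with the SD of 3 arrays. A single Mag value at -2.59 stands far below the other 11, the 3 Mog values of the L-DOPA group nearly coincide, and the Ugt8 values with L-DOPA and zonisamide lie below those of both other lesioned groups.

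Mbp encodes myelin basic protein, which binds the inner faces of the membrane to each other. Its brighter probe (A_64_P017163) stood at 5.21, 6.29 and 5.07 with L-DOPA and zonisamide, at 5.16, 5.97 and 5.39 with L-DOPA, at 5.85, 5.59 and 7.32 in lesioned saline and at 5.90, 6.05 and 4.98 in non-lesioned striatum. Replicate 3 of lesioned saline was the highest of the 12, and the groups overlapped in every comparison. The differences were 0.02 ± 0.50 for L-DOPA with zonisamide against L-DOPA, -0.73 ± 0.50 for both drugs against lesioned saline, -0.75 ± 0.50 for L-DOPA against lesioned saline and 0.61 ± 0.50 for lesioned against non-lesioned saline (log2 change ± SE, adjusted p 0.994, 0.737, 0.619 and 0.736, limma). Another Mbp probe (A_64_P017160) was steadier, between -1.77 and -1.35 on all 12 arrays. It gave -0.0022 ± 0.14 for L-DOPA with zonisamide against L-DOPA, 0.077 ± 0.14 for both drugs against lesioned saline, 0.079 ± 0.14 for L-DOPA against lesioned saline and -0.27 ± 0.14 for lesioned against non-lesioned saline (95% interval of the last -0.58 to 0.05). The probes of Mbp thus had opposite signs in all 4 comparisons, and the larger values of the brighter probe were not shared by the steadier one.

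Mobp, another small basic protein of compact myelin, was measured at 3.14, 3.22 and 3.71 with L-DOPA and zonisamide, 3.57, 3.94 and 3.91 with L-DOPA, 3.80, 3.48 and 3.59 in lesioned saline and 3.91, 3.67 and 3.13 in non-lesioned striatum. With zonisamide 2 of the 3 arrays lay below all arrays of the L-DOPA group, and the third lay among them. The difference was -0.45 ± 0.23 (95% interval -0.97 to 0.07, adjusted p = 0.481, limma). Against lesioned saline the difference was -0.27 ± 0.23 with both drugs and 0.18 ± 0.23 with L-DOPA, and that between lesioned and non-lesioned saline was 0.06 ± 0.23. Another Mobp probe (A_44_P167930) gave -0.43, 0.06, 0.49 and -0.22 in these 4 comparisons, each with an SE of 0.32. The probes had the same sign for L-DOPA with zonisamide against L-DOPA and for L-DOPA against lesioned saline, and opposite signs in the other comparisons.

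Mag, an adhesion protein of the innermost membrane that faces the axon, rests on a probe with 1 spot per array (A_64_P019613). Its level was 4.21, 2.99 and 3.47 with L-DOPA and zonisamide, 4.19, 4.43 and 4.22 with L-DOPA, -2.59, 4.33 and 4.54 in lesioned saline and 4.53, 3.89 and 3.87 in non-lesioned striatum. The low value was a single spot of 177 intensity units on replicate 1 of lesioned saline, against 8778 to 34336 on the other 11 arrays. That spot carried no outlier mark and was marked above background. The other Mag probe (A_42_P646991), with 10 spots, stood at 0.34 on that array, against 0.30 and 0.20 on the other lesioned saline arrays, and between -0.05 and 0.59 over all 12. The difference in Mag of -2.0 ± 1.5 between lesioned and non-lesioned saline therefore rests on 1 spot. Without that array it was 0.34, and with the 10-spot probe -0.05 ± 0.18. For L-DOPA against lesioned saline the 1-spot probe gave 2.19 ± 1.5, or -0.15 without that array, and the 10-spot probe 0.08 ± 0.18. With both drugs against lesioned saline the values were 1.46 ± 1.5, -0.88 and -0.23 ± 0.18. In the zonisamide comparison, where that array enters the pooled error but not the difference, the 1-spot probe gave -0.73 ± 1.5, or -0.73 ± 0.30 without that array (adjusted p = 0.416, limma), and the 10-spot probe -0.30 ± 0.18 (95% interval -0.71 to 0.10).

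Mog, a protein of the outermost myelin membrane, had the smallest SE of the 9 when each gene was read by its brightest probe. The steadier Mbp probe had a slightly smaller SE (0.141 against 0.149 for Mog, fit over probes). The level of Mog was 1.53, 1.28 and 1.76 with L-DOPA and zonisamide, 1.64, 1.64 and 1.65 with L-DOPA, 1.43, 1.18 and 1.35 in lesioned saline and 1.58, 1.45 and 1.45 in non-lesioned striatum. All L-DOPA arrays lay above all lesioned saline arrays, and all lesioned saline arrays below all non-lesioned ones. Neither difference passed: 0.32 ± 0.15 for L-DOPA against lesioned saline (95% interval -0.01 to 0.65, adjusted p = 0.458) and -0.17 ± 0.15 for lesioned against non-lesioned saline (-0.50 to 0.16, adjusted p = 0.758, limma). The far ends of these intervals correspond to 1.57-fold higher with L-DOPA and to 0.708 of the non-lesioned level in lesioned saline. L-DOPA with zonisamide differed from L-DOPA by -0.12 ± 0.15 and from lesioned saline by 0.20 ± 0.15, with groups that overlapped.

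Opalin, a glycoprotein of the oligodendrocyte membrane, had differences as small as those of Mog but of the opposite sign around lesioned saline. Its brighter probe (A_44_P776423) was at 2.02, 1.68 and 2.25 with L-DOPA and zonisamide, 2.09, 1.74 and 1.81 with L-DOPA, 2.26, 2.14 and 2.15 in lesioned saline and 1.87, 1.93 and 2.12 in non-lesioned striatum. The lesioned saline arrays lay above all L-DOPA arrays and above all non-lesioned arrays. The difference was -0.31 ± 0.17 for L-DOPA against lesioned saline (95% interval -0.69 to 0.08, adjusted p = 0.552) and 0.21 ± 0.17 for lesioned against non-lesioned saline (-0.17 to 0.60, adjusted p = 0.734, limma). A dimmer Opalin probe (A_64_P133286) gave 0.22 ± 0.42 and -0.21 ± 0.42 in these comparisons, the opposite sign in each, with a much larger error. L-DOPA with zonisamide differed by 0.11 ± 0.17 from L-DOPA and by -0.20 ± 0.17 from lesioned saline.

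Groups that do not overlap were common on these arrays. In the comparison of L-DOPA with lesioned saline they were found for 2 of the 9 genes (Mog and Opalin) and for 22.4% of all tested features. Between lesioned and non-lesioned saline the same 2 genes were separate, against 17% of features. In each comparison with L-DOPA and zonisamide it was 1 of 9 (Ugt8), against 17.3% of features where L-DOPA alone was the other group and 18.1% where lesioned saline was. The counts among the 9 genes are thus near those over all features. They read each gene by its brightest probe. Separate groups were also found for other probes. The 10-spot Mag probe ran from -0.05 to 0.15 with L-DOPA and zonisamide and from 0.20 to 0.34 in lesioned saline. The steadier Mbp probe ran from -1.77 to -1.56 in lesioned saline and from -1.42 to -1.35 in non-lesioned striatum.

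Cldn11 forms the tight junctions between turns of myelin. It stood at -0.60, 0.12 and 0.14 with L-DOPA and zonisamide, 0.22, -0.10 and -0.30 with L-DOPA, -0.21, 0.02 and 0.23 in lesioned saline and 0.53, -0.29 and 0.05 in non-lesioned striatum. The 3 arrays of every group lay on both sides of 0. Its 4 differences lay between -0.13 and -0.05 with an SE of 0.27, and the 95% interval for L-DOPA against lesioned saline was -0.67 to 0.53. The spread was between arrays and not between spots: the 2 spots of the probe never differed by more than 0.23 on an array.

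Cnp, a nucleotide phosphodiesterase of the uncompacted parts of myelin, was at -0.14, 0.23 and -0.70 with L-DOPA and zonisamide, 0.07, 1.37 and 0.68 with L-DOPA, 0.00, 0.44 and 0.91 in lesioned saline and -0.52, 0.22 and -0.68 in non-lesioned striatum. L-DOPA with zonisamide was lower than L-DOPA by the largest amount of the 9 genes in that comparison, with overlap between the groups: -0.91 ± 0.39 (95% interval -1.78 to -0.04, unadjusted p = 0.0427, adjusted p = 0.378, limma). The remaining differences were -0.65 ± 0.39 for both drugs against lesioned saline, 0.25 ± 0.39 for L-DOPA against lesioned saline and 0.78 ± 0.39 for lesioned against non-lesioned saline. Its 2 spots disagreed more than those of any other 2-spot probe among the 9 genes that was above background on every array. On replicate 3 of L-DOPA with zonisamide they stood at 0.86 and -2.25, and they were over 1 apart on 7 of the 12 arrays. Without replicate 2 of L-DOPA the zonisamide difference was -0.58. Without the 4 arrays of highest choroid plexus level it was -0.03, a value that sets 2 arrays with zonisamide against the single L-DOPA array left.

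Ugt8 makes galactosylceramide, the main glycolipid of myelin. It stood at -0.61, -0.67 and -0.51 with L-DOPA and zonisamide, 0.25, 0.45 and -0.24 with L-DOPA, -0.02, -0.15 and -0.03 in lesioned saline and 0.40, -0.66 and -0.83 in non-lesioned striatum. The 3 arrays with zonisamide lay below all arrays of both other lesioned groups but within the range of the non-lesioned side. The difference was -0.75 ± 0.30 against L-DOPA (95% interval -1.41 to -0.09, unadjusted p = 0.0291, adjusted p = 0.329) and -0.53 ± 0.30 against lesioned saline (-1.19 to 0.13, adjusted p = 0.697, limma). Of the 9 genes it had the smallest p in the zonisamide comparison, and it kept its sign under all alternatives tried, between -0.99 and -0.61. The 2 spots differed by 1.39 on replicate 3 of L-DOPA with zonisamide and by 1.46 on replicate 3 of L-DOPA, and by 0.19 or less on the other arrays of these groups. L-DOPA differed from lesioned saline by 0.22 ± 0.30, and lesioned from non-lesioned saline by 0.30 ± 0.30.

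Ermn, ermin, is an actin-binding protein of late oligodendrocytes. Its probe was dim, above background on 11 of 12 arrays, at -2.67, -2.55 and -4.95 with L-DOPA and zonisamide, -2.18, -1.60 and -3.92 with L-DOPA, -3.29, -2.04 and -1.40 in lesioned saline and -1.71, -1.95 and -3.22 in non-lesioned striatum. Replicate 3 of L-DOPA with zonisamide, the array not above background, was the lowest. With an SE of 0.81 its differences ran from -1.15 to 0.05, and each 95% interval included 0.

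**Figure D2:**
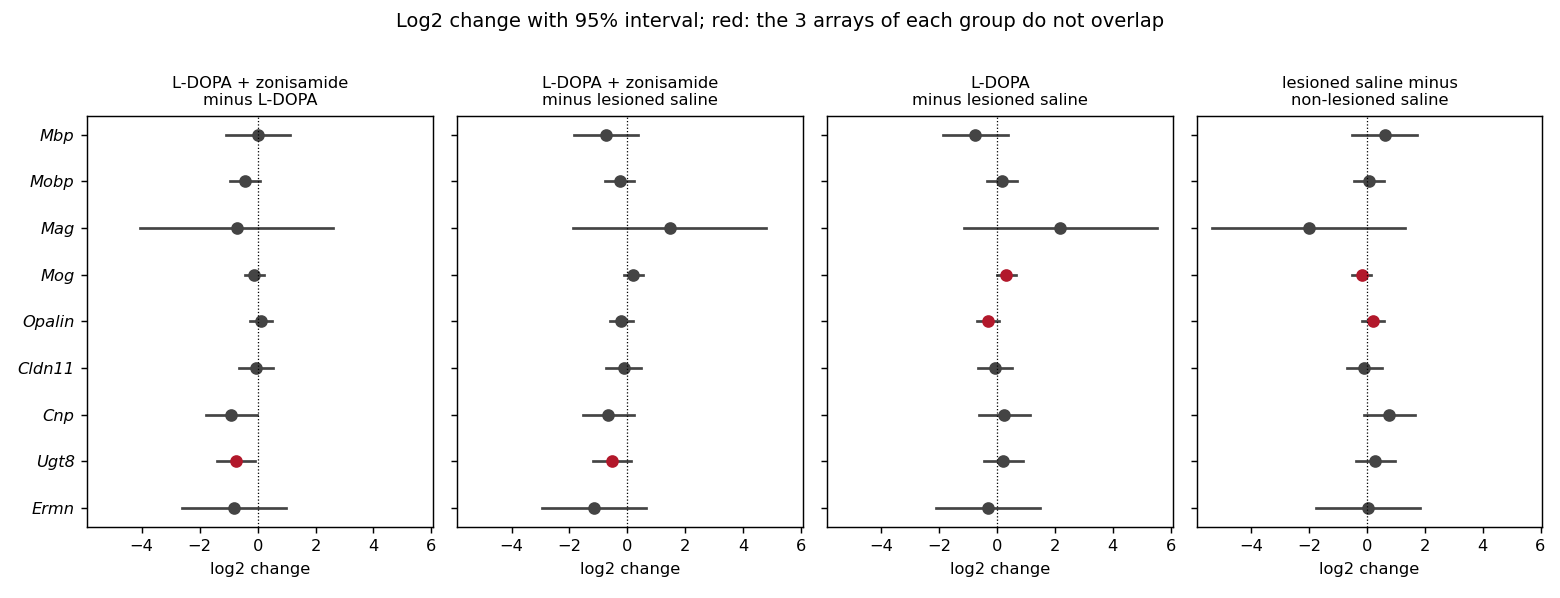
Log2 change of each gene (point) with its 95% interval from limma (line) in 4 comparisons, each named above its panel. Red points mark comparisons in which the 3 arrays of one group did not overlap the 3 of the other. The intervals of Mag are the widest and those of Mog and Opalin the narrowest, and the intervals of Cnp and Ugt8 in the left panel are the ones that leave out 0.

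Set side by side, 7 of the 9 genes were lower and 2 higher with L-DOPA and zonisamide than with L-DOPA, with a median of -0.45 against -0.03 over all tested features. Against lesioned saline the same drug pair gave 7 lower and 2 higher with a median of -0.27, against -0.05 over all features. For L-DOPA against lesioned saline 5 were higher and 4 lower (median 0.18, all features -0.03), and for lesioned against non-lesioned saline 6 were higher and 3 lower (median 0.06, all features 0.05). These medians carry no test. The 2 comparisons with L-DOPA and zonisamide share its 3 arrays. Without replicate 1 of lesioned saline the median for L-DOPA was -0.15. In the zonisamide comparison same-numbered arrays lay on the same slide, and within each of the 3 slides 7, 7 and 6 of the 9 genes were lower with zonisamide. Cnp, Ermn, Mobp and Ugt8 were lower on all 3 slides, Cldn11 and Mbp on 1 of 3. On the 2 slides that held both groups, 6 of 9 were lower on each for both drugs against lesioned saline, and 6 and 7 of 9 were higher for L-DOPA against lesioned saline. The 1 slide that held lesioned and non-lesioned saline arrays had 7 of 9 lower in lesioned saline, where the group means had 3. On that slide the Mag differences rest on the low spot of lesioned saline. They were -7.11 here, 6.78 for L-DOPA and 6.80 for both drugs against lesioned saline. The group counts include that spot too. Without its array Mag turned in sign, to 0.34 for lesioned against non-lesioned saline. It was then -0.15 for L-DOPA and -0.88 for both drugs against lesioned saline.

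Markers of other cell types were read beside the 9 genes. Blood vessel markers (8 of 8 listed were tested) were all lower with L-DOPA and zonisamide than with L-DOPA, with a median of -0.80 and 0 passing. Their summed level ran from 1.69 to 2.21 with L-DOPA and zonisamide, 2.70 to 3.24 with L-DOPA, 2.20 to 2.54 in lesioned saline and 1.98 to 2.28 in non-lesioned striatum (log2 of the summed relative signals). All 11 choroid plexus markers were lower in the same comparison, with a median of -1.54. Against lesioned saline all 11 were higher with L-DOPA (median 2.87) and with both drugs (median 1.33). All 11 were lower in lesioned than in non-lesioned saline (median -1.73), and 0 passed in any comparison. Their summed level ran from 2.83 to 6.78 with L-DOPA and zonisamide, 4.38 to 7.43 with L-DOPA, 0.25 to 4.42 in lesioned saline and 2.50 to 7.10 in non-lesioned striatum. Of 10 cortical neuron markers 4 could be tested, and all 4 were lower with L-DOPA and zonisamide than with L-DOPA, with a median of -0.22. Their summed level, which the brightest gene carries, ran from 4.61 to 4.80 with L-DOPA and zonisamide, 4.59 to 5.19 with L-DOPA, 4.34 to 4.99 in lesioned saline and 4.62 to 5.11 in non-lesioned striatum. One of them passed in the zonisamide comparison: Nptx1, a secreted neuronal pentraxin, was at -1.13, -2.04 and -1.40 with L-DOPA and zonisamide and at 0.64, 0.24 and -0.18 with L-DOPA. It fell by 1.76 ± 0.29 (adjusted p = 0.0404, or adjusted p = 0.0657 with the replicate number as a block, limma), and passed in 13 of 27 alternatives. For lesioned against non-lesioned saline 3 of the 4 cortical markers were higher, with a median of 1.13 and 0 passing, and the median level after centring each gene ran from -0.60 to 0.82 in lesioned saline and from -1.32 to -0.81 in non-lesioned striatum. Within that list Neurod6, a cortical transcription factor, was at -2.71 and -2.50 on replicate 1 of L-DOPA with zonisamide and of L-DOPA, and at -4.04 or lower on the other 10 arrays. All 10 microglia markers were tested. In the zonisamide comparison 8 of 10 were lower (median -0.31), and with L-DOPA against lesioned saline 7 of 10 (median -0.29). With both drugs against lesioned saline 10 of 10 were lower (median -0.27). In lesioned against non-lesioned saline 10 of 10 were higher (median 0.21), with 0 passing in each of the 4 comparisons. Their summed level ran from 4.99 to 5.13 with L-DOPA and zonisamide, 5.21 to 5.45 with L-DOPA, 5.32 to 5.66 in lesioned saline and 4.98 to 5.27 in non-lesioned striatum. All 9 pan-neuronal markers tested were higher with both drugs than in lesioned saline (median 0.24, 0 passing), with summed levels of 5.17 to 5.75 and 4.94 to 5.32. Of 10 astrocyte markers 7 were lower in the zonisamide comparison (median -0.083, 0 passing). Of 10 spiny neuron markers 5 were lower there and 0 passed, while for L-DOPA against lesioned saline 1 passed. That gene is Pdyn, which encodes the dynorphin precursor, and it rose by 1.75 ± 0.22 with L-DOPA (adjusted p = 0.0151, limma), passing in 20 of 27 alternatives. The part of these levels in the differences of myelin genes was not tested.

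**Figure D3:**
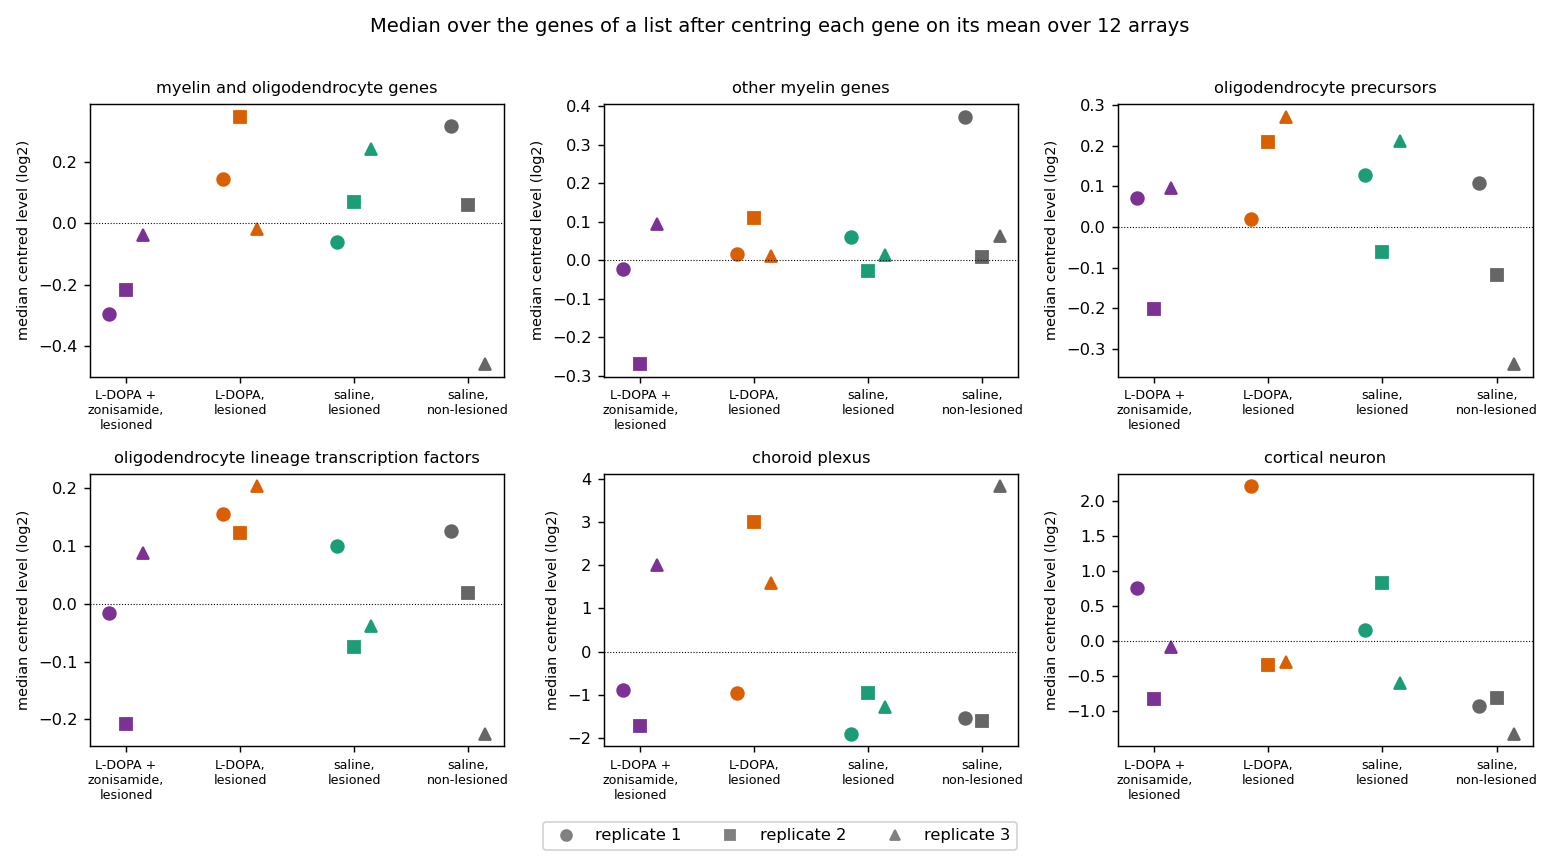
Median over the genes of a list, after centring each gene on its mean over 12 arrays (log2, own axis per list), for the 9 myelin genes, 3 further oligodendrocyte lists, and markers of choroid plexus and cortical neurons. Columns run from L-DOPA with zonisamide through L-DOPA and lesioned saline to non-lesioned saline, and point shapes give the replicate. The axis of the choroid plexus panel spans several log2 units, while the oligodendrocyte lists stay within 0.5 of 0.

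Other genes of the lineage were read from 3 lists without the 9 genes. Of 48 other myelin genes listed 40 were tested, of 17 lineage transcription factors 13, and of the precursor genes 15 of 19. None passed in any comparison (limma). In the zonisamide comparison the numbers lower were 27 of 40, 10 of 13 and 11 of 15, with medians of -0.15, -0.18 and -0.15. Over all tested features the median was -0.03 with quartiles of -0.31 and 0.19, and the medians of these 3 lists lay between the quartiles. The median of the 9 genes in that comparison, -0.45, lay below the lower quartile. In the other comparisons the median of the 9 genes lay between the quartiles. In the L-DOPA comparison the numbers lower were 21 of 40, 7 of 13 and 7 of 15, with medians of -0.03, 0.00 and 0.03. For lesioned against non-lesioned saline 27 of 40 other myelin genes were lower (median -0.15), while 13 of 15 precursor genes were higher (median 0.24). The quartiles over all features were -0.15 and 0.34 there. With both drugs against lesioned saline 24 of 40, 8 of 13 and 12 of 15 were lower, with medians of -0.12, -0.13 and -0.07. The part of the other cell types' levels in these counts was not tested either.

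Gsn, gelsolin, which cuts actin filaments, was among the other myelin genes the one with the smallest p for both L-DOPA and zonisamide. It stood at 2.63, 2.26 and 2.61 with L-DOPA and zonisamide, 3.19, 3.18 and 3.30 with L-DOPA, 2.17, 2.62 and 2.62 in lesioned saline and 2.93, 2.42 and 2.92 in non-lesioned striatum. All L-DOPA arrays lay above all arrays of the other 3 groups. The difference was -0.73 ± 0.19 for L-DOPA with zonisamide against L-DOPA (adjusted p = 0.142) and 0.76 ± 0.19 for L-DOPA against lesioned saline (adjusted p = 0.155, limma).

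Olig1, a transcription factor of the whole lineage, had its highest levels with L-DOPA. It stood at 2.05, 2.10 and 2.37 with L-DOPA and zonisamide, 2.54, 2.72 and 2.71 with L-DOPA, 2.29, 2.27 and 2.27 in lesioned saline and 2.40, 1.93 and 2.09 in non-lesioned striatum. The L-DOPA arrays lay above all others. The difference was -0.48 ± 0.16 for L-DOPA with zonisamide against L-DOPA (adjusted p = 0.238) and 0.38 ± 0.16 for L-DOPA against lesioned saline (adjusted p = 0.393, limma). Gsn and Olig1 were named for a small p in their lists, and that choice favours groups that do not overlap. Such groups were found for 17.3% and 22.4% of all tested features in these comparisons. For each gene both differences use the same L-DOPA arrays, so they are not independent of each other.

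Id2, an inhibitor of differentiation factors, differed by -1.26 ± 0.40 between L-DOPA with zonisamide and L-DOPA, with an adjusted p of 0.229. Ednrb, an endothelin receptor, differed by -0.52 ± 0.20 (adjusted p = 0.311) and Neu4, a sialidase of precursors, by -0.63 ± 0.26 (adjusted p = 0.345) in that comparison. Pmp2, a fatty acid binding protein, differed by 0.57 ± 0.22 (adjusted p = 0.323) and Gjb1, a gap junction protein, by -0.42 ± 0.18 (adjusted p = 0.362). Pmp2 was dim. Even the summed level of the 3 Schwann cell markers tested, Pmp2 among them, was -3.72 to -2.14 with L-DOPA and zonisamide. With L-DOPA it was -3.58 to -2.85. Klk6, a protease of oligodendrocytes, differed by 0.54 ± 0.20 between L-DOPA and lesioned saline (adjusted p = 0.35) and by -0.45 ± 0.20 between lesioned and non-lesioned saline (adjusted p = 0.588). Pmp22, which is better known from peripheral myelin, differed by 0.40 ± 0.17 between lesioned and non-lesioned saline (adjusted p = 0.577). Gpr17, a receptor of committed precursors, had a larger but less certain difference of 1.02 ± 0.60 there (adjusted p = 0.654). Adamts4, a protease of mature oligodendrocytes, differed by -0.65 ± 0.24 between both drugs and lesioned saline (adjusted p = 0.656, limma). The factors whose cores were searched in the promoters, chosen here for that reason, had small differences: Sox10 differed by -0.13 to -0.04 over the 4 comparisons (SE 0.17) and Myrf by -0.32 to -0.03 (SE 0.29).

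**Figure D4:**
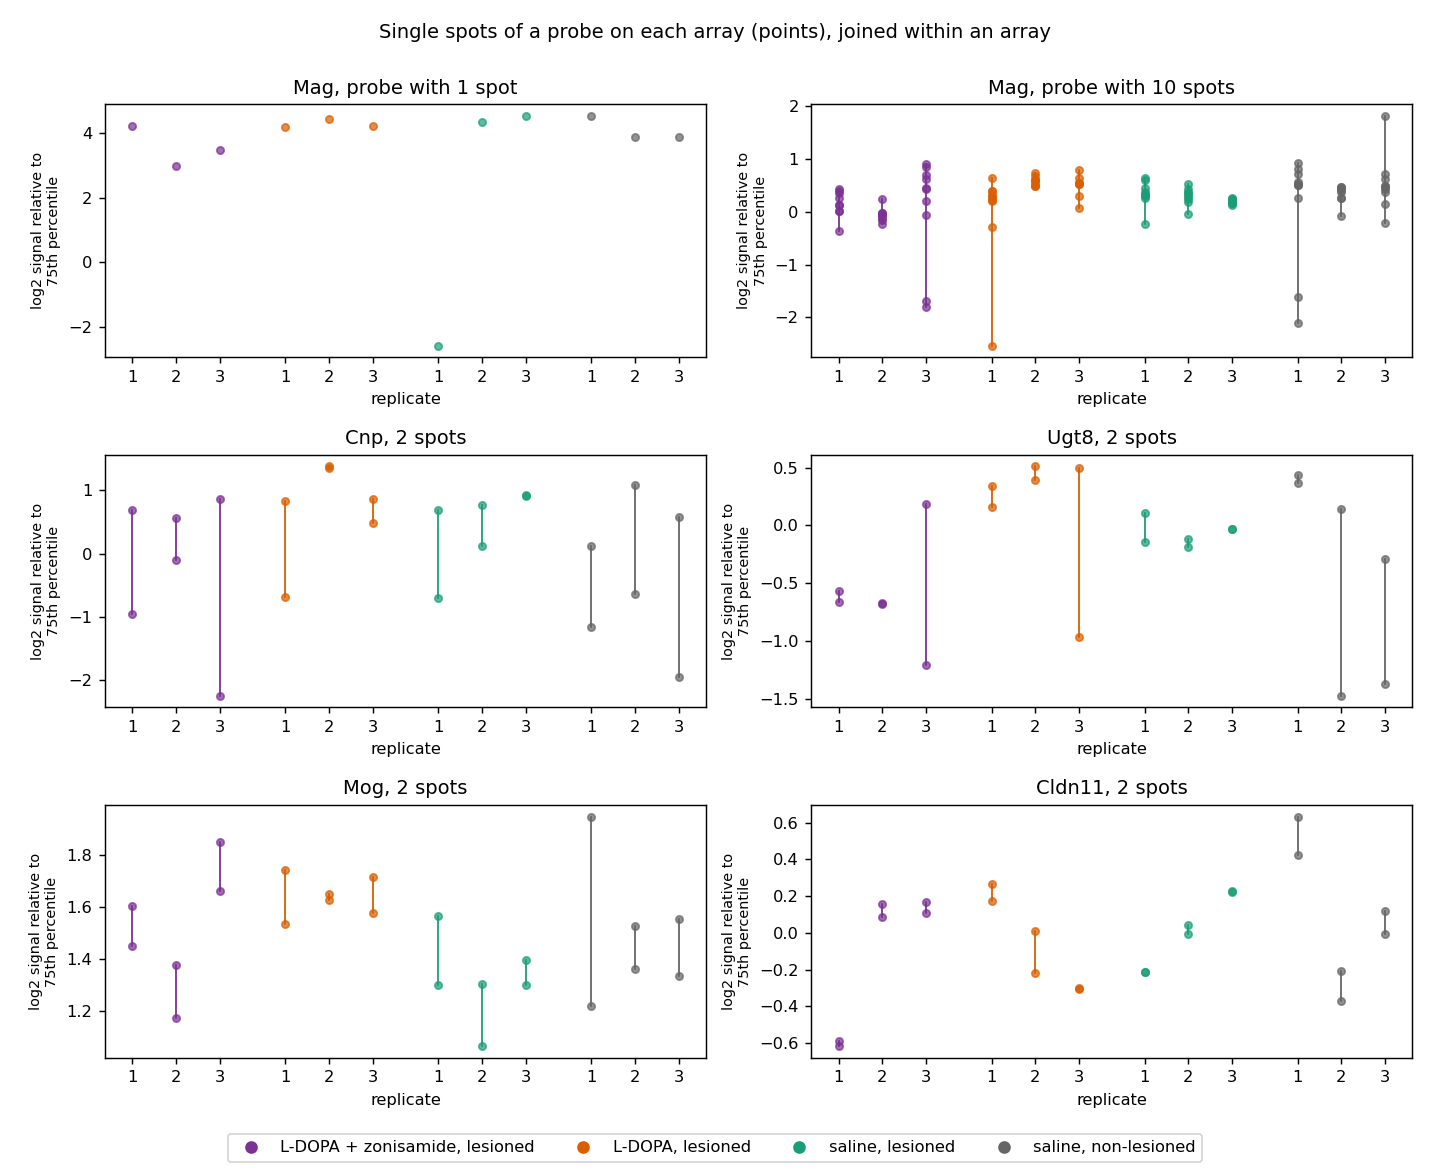
Single spots of a probe on each of the 12 arrays (points, log2 signal relative to the 75th percentile, own axis per panel), joined within an array, for both Mag probes, Cnp, Ugt8, Mog and Cldn11. Colours give the groups from L-DOPA with zonisamide on the left to non-lesioned saline on the right. Spots of Cldn11 nearly coincide while those of Cnp lie up to 3.11 apart, and the 1-spot Mag probe has its low value on replicate 1 of lesioned saline.

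How closely the spots of a probe agreed differed between the genes, and its part in the standard errors was not tested. For 10 probes of the 9 genes both of 2 spots could be used on every array and the probe was above background throughout. The error of a 2-spot mean, from the differences between spots, was 0.77 for Cnp, 0.50 for the brighter Mbp probe, 0.41 for Ugt8 and 0.26 for the brighter Opalin probe. The SD between arrays of a group was 0.52, 0.68, 0.38 and 0.19 for the same probes. For Cnp, Ugt8 and Opalin the spots of one array thus differed as much as, or more than, the arrays of a group did. For Mog the 2 values were close to each other at 0.14 and 0.14. For Cldn11 they were 0.06 and 0.34, and for the brighter Mobp probe 0.16 and 0.28. Over the 10545 probes on the array with 2 usable spots, the medians were 0.21 for the error and 0.30 for the SD between arrays. Spots over 1 log2 unit apart made up 20 of 120 pairs of these probes (16.7%), against 9.93% of pairs on the whole array. Replicate 3 of L-DOPA with zonisamide had the highest such share of the 12 arrays at 18.8%, and replicate 3 of lesioned saline the lowest at 0.266%. The 3 Mog values of the L-DOPA group, with an SD of 0.004, were closer together than the spots behind them.

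The measured levels of the 9 genes were mostly weakly correlated from array to array. Of 36 pairs of genes 14 had a negative Pearson correlation over the 12 arrays and 3 one above 0.5, with a median of 0.15. Mobp and Ugt8 ran together most (0.70), then Mbp and Ermn (0.61) and Mbp and Cnp (0.57), while Mbp and Mog ran most against each other (-0.47). The genes of the 3 printed promoters, which share both strings, correlated at 0.16 (Mag and Cnp), -0.37 (Mag and Opalin) and -0.41 (Cnp and Opalin). The low Mag spot enters the Mag values: over the 11 arrays without replicate 1 of lesioned saline Mag and Cnp were at 0.37 and Mag and Opalin at 0.13, Mag and Ugt8 reached 0.68, and 10 of the 36 pairs were negative with 6 above 0.5. These are descriptions over arrays that share groups, slides and a scaling step. Spot error, which for Cnp, Ugt8 and Opalin was as large as the spread between arrays, can weaken such correlations. Low values therefore do not show that the genes, those of the printed promoters included, vary apart.

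**Figure D5:**
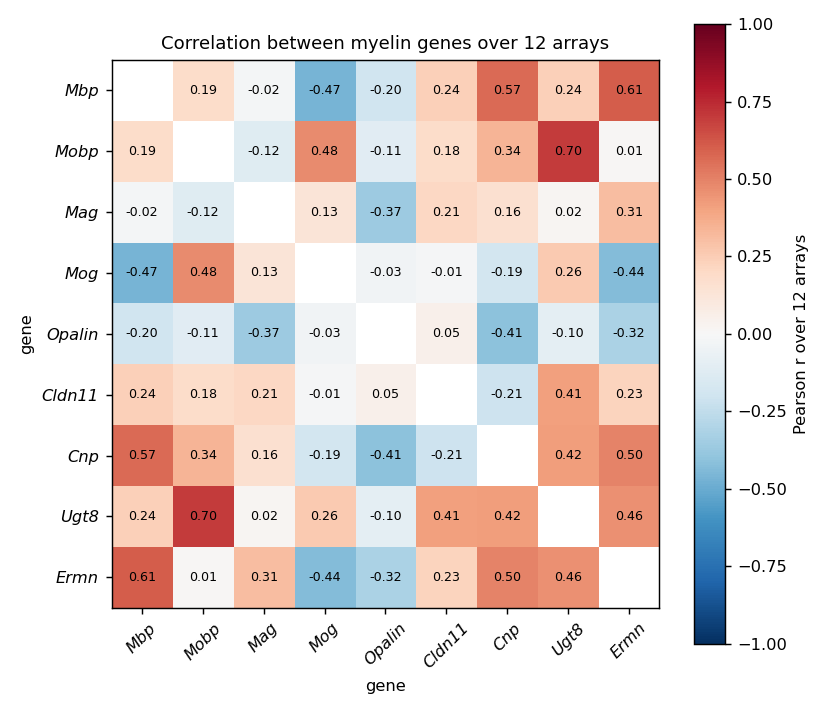
Pearson correlation over 12 arrays between each pair of the 9 genes (both axes list the genes, colour from blue at -1 to red at 1, value in each cell). Positive and negative cells are mixed, from -0.47 for Mbp with Mog to 0.70 for Mobp with Ugt8.

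Likeness to the mean of the 9 genes, each centred, was taken over 11096 other features with a symbol. The highest correlations over the 12 arrays were those of Helz (0.92), Rpl8 (0.92), Ubxn1 (0.90), Hipk2 (0.89), Zbtb8b (0.89), Abce1 (0.89), Ppcdc (0.87) and Tnrc18 (0.86), and the lowest those of Arf1 (-0.84), Galnt11 (-0.84) and Mrm3 (-0.83). The order rested on the 1 low Mag spot: with Mag left out of the mean, Rpl8 was at 0.64 and Helz at 0.76, and the 8 highest were other genes, led by Gpatch2l (0.97), Serpina4 (0.94) and Vom2r18 (0.93). The genes were centred but not scaled, so those that vary most weigh most in the mean. With Mag left out, the gene of widest range was the dim Ermn (-4.95 to -1.40). None of the listed genes belongs to the myelin lists.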

How the data were processed

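RNA of 12 striatal samples was labelled with Cy3 and hybridised to single-colour Agilent arrays of 62976 spots. The authors extracted intensities with Agilent Feature Extraction (10.7 per the submitters' processing notes, 10.7.3.1 per the file headers); the deposited processed signal is an intensity with background subtracted and spatial trend removed, per the file headers, and is not scaled between arrays. Control spots (4259 per array) and spots that the files mark as outliers did not enter, and the mean was taken over the spots of each probe. Of the 396 spots of the 9 genes 8 carried an outlier mark, and 0 were saturated. The log2 values were computed here from the deposited intensity, less each array's 75th percentile.

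Symbols came from a RefSeq table of build GRCr8 matched by accession, which gave 17320 probes with 1 symbol. The probe design is older than that build, so no probe coordinates are given. A probe was tested if at least 0.5 of its spots were above background on all 3 arrays of a group. The brightest probe stood for a gene, which left 19413 features. limma 3.58.1 (R 4.3.3) fitted a single model to all 12 arrays in 4 groups (8 residual degrees of freedom, two-sided, Benjamini-Hochberg over all features, threshold 0.05). Errors are moderated standard errors. Exact permutation tests are not given, since their smallest p for 3 arrays against 3 is 0.1. The design text assigns 3 animals to each group. The script was tested on simulated data.

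The arrays lay on 5 slides: replicate 1 of all groups on the first, replicate 2 of the lesioned groups on another, both drug groups' replicate 3 shared a slide with the non-lesioned replicate 2, and each saline group's replicate 3 was alone on a slide. Deviations of same-numbered arrays correlated at 0.37, 0.19 and 0.25 in the zonisamide comparison, whose equal numbers share a slide. The main fit used no pairing in any comparison. The replicate number entered as a block only in an alternative, which was run for all comparisons.

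Genes of the 3 further oligodendrocyte lists are named where they passed, and otherwise as the 3 of each list with the smallest p in a comparison, of which the text gives some. Nptx1, Pdyn and Neurod6 of the marker lists were named after their values were seen. The 9 genes, the lists and this rule were chosen with earlier results of these data known. Probe and protein sequences were not used here.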

Additional observations from a re-analysis of the deposited data

How the results depend on the processing

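None of the 9 genes passed an adjusted p of 0.05 under any of the 28 alternatives (959 results in all, 0 called), and none of the 3 further oligodendrocyte lists gave a call. Of these results 51 changed sign, all of values that did not pass; 23 of them came from leaving out 1 array. The arrays left out for choroid plexus level or spot spread, the probe with the most spots, the median of spots and the set without Mag were chosen after the data were seen. The set without Mag left the fit of the other genes as it was. Ermn, above background on 11 of 12 arrays, has no result where a probe had to be above background on all arrays. The cause of the turns was not tested, except for Mag, whose sign rested on 1 spot. Between 3 and 3 arrays, changes smaller than the intervals given could not be seen.

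For lesioned against non-lesioned saline, Mobp was -0.076 and Ermn -0.085 with quantile normalization, Mobp -0.032 and Opalin -0.019 with normexp and quantile normalization, Mobp -0.079 with the mean of a gene's probes, Mobp -0.0091 and Ermn -0.13 with array weights, and Ermn -0.17 with slide as a random block. With slide as a fixed block, Mbp was -0.57, Mobp -0.040, Ermn -1.93 and Ugt8 -0.15, and the Cnp difference was 0.078. Without the 4 arrays of highest Ttr, a choroid plexus gene, Mobp was -0.16 and Ermn -0.41. Leaving out each array in turn gave ranges of -0.28 to 0.13 for Cldn11, -0.16 to 0.23 for Mobp, -0.41 to 0.57 for Ermn and -3.22 to 0.34 for Mag.

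For L-DOPA against lesioned saline, Cldn11 was 0.021 with normexp and quantile normalization. With slide as a fixed block, Ermn was 0.69 and Cldn11 0.11. Without the 4 arrays of highest Ttr, which leaves 1 L-DOPA array that is assumed to vary like the others, Mobp was -0.057, Cnp -0.38, Ermn 0.063 and Cldn11 0.21. Without the 5 arrays of large spot spread, Ermn was 0.35 and Cldn11 0.048. Leaving out each array gave -0.15 to 3.41 for Mag, -0.85 to 0.35 for Ermn, -0.21 to 0.048 for Cldn11, -0.076 to 0.57 for Cnp and -0.15 to 0.27 for the median of the 9 genes, whose low end was without replicate 1 of lesioned saline.

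For L-DOPA with zonisamide against L-DOPA, Opalin was -0.24 without the 4 arrays of highest Ttr (2 arrays against 1) and -0.066 without the 5 arrays of large spot spread. Leaving out each array gave -0.37 to 0.25 for Mbp, -0.18 to 0.19 for Cldn11, -0.24 to 0.0013 for Mog and -0.031 to 0.26 for Opalin, while the median of the 9 genes stayed between -0.58 and -0.24 under all alternatives. Cnp was -0.47 with normexp and quantile normalization. With the replicate number as a block (replicate block), 0 of the 9 genes passed here and the median stayed at -0.45; the block changed no call of the 9 genes in the other comparisons.

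For both drugs against lesioned saline, Opalin was 0.082 with the mean of a gene's probes, Cldn11 0.061 with slide as a fixed block, and Mag -0.23 with the probe with the most spots. Leaving out each array gave -0.88 to 2.68 for Mag and -0.25 to 0.12 for Cldn11. Leaving out the 5 arrays of large spot spread leaves no non-lesioned array, so that comparison has no such value.

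Counts over all features moved more. For L-DOPA against lesioned saline the 84 calls were 441 with array weights, 48 with no filter on dim probes, 34 with the replicate block, 7 without the 4 arrays of highest Ttr (1 L-DOPA array left), 1 without the 5 arrays of large spot spread, and 0 with slide as a fixed block or with the compared groups alone. For L-DOPA with zonisamide against L-DOPA the 93 calls were 188 with slide as a random block, 50 with normexp and quantile normalization, 45 with no filter, 13 with the replicate block, 6 and 1 without those arrays (1 and 2 L-DOPA arrays left), and again 0 with a fixed slide block or the compared groups alone. Leaving out 1 array gave 2 to 210 and 0 to 253. With 0 calls at first, lesioned against non-lesioned saline reached 17 without the arrays of highest Ttr and 13 when the non-lesioned replicate 3 was left out.

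The Nptx1 call was lost without any 1 of replicates 2 and 3 of L-DOPA with zonisamide, 2 and 3 of L-DOPA, 1 and 2 of lesioned saline or 1 and 2 of the non-lesioned side (adjusted p 0.0253 to 0.373 over all alternatives), and the Pdyn call without replicate 2 or 3 of L-DOPA or replicate 1 of lesioned saline (0.00617 to 0.314, limma).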
